A study of Mus musculus with 12 samples.

Results

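The genes described here are 44 surface molecules of myeloid cells, taken as a fixed list of names: C-type lectins, Fc receptors, their signalling adaptors, TREM, CD300, paired Ig-like and Siglec receptors, scavenger and matrix receptors, chemotactic receptors, integrins, growth factor receptors and surface markers. All 44 were found by name among the 36981 genes on the array, and 41 could be tested. Expression was measured in 12 mouse heart samples with 1 Agilent single-colour array per sample, in 4 groups of 3. The WT group is wild-type mice and WT+MI is wild-type mice after myocardial infarction, both labelled C57/BL6. TG (TG-CCRR in the labels) is mice carrying a transgene for CCRR, a long non-coding RNA, and TG+MI is such mice after infarction. No strain is stated for TG and TG+MI, so strain and transgene cannot be told apart. The sources used here do not give the promoter of the transgene, the ages, or how long after infarction the hearts were taken. Nothing in the labels says that the 3 samples in a group are separate animals, so each p-value reflects only how far these samples vary, possibly for technical reasons. The study asks whether CCRR limits inflammation after infarction.

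Myeloid cells read tissue injury through receptors of this kind. Many activating lectins, Fc receptors and TREM proteins lack a signalling tail of their own and pair with the adaptors FcRγ (Fcer1g) or DAP12 (Tyrobp), whose phosphorylated tyrosine motifs recruit the kinase Syk. Inhibitory relatives, such as Fcgr2b, Cd300a, Pilra, Clec12a, Siglece and Sirpa, recruit phosphatases instead, and for several of them Ptpn6 is one. After infarction, neutrophils and then monocytes are known to enter the heart muscle, where resident macrophages are already present, and chemotactic receptors and the β2 integrins serve that entry.

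A level here is the log2 of the background-subtracted signal minus the 75th percentile of its own array, so 0 is that percentile, and levels are compared between arrays and never between genes. That percentile, taken over distinct non-control probes, lay between 137.8 and 259.7 signal units, 0 spots were saturated, and between 47.0% and 55.2% of probes were well above background per array. All 12 arrays measured the 6 heart muscle markers well above background. All WT and WT+MI arrays were on slide 1 together with TG 1 and TG 2, and TG 3 shared slide 2 with the TG+MI arrays. The transgenic and wild-type infarcted hearts therefore share no slide, and slide cannot be told apart from that comparison except through TG 3. Averaged over the 41 tested members, TG 3 on slide 2 lay at -0.73 relative to each gene's mean of all 12 arrays, beside -0.77 and -0.86 for TG 1 and TG 2 on slide 1.

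The infarcted hearts differed among themselves, so the array behind each value matters. Mean deviations over the 41 tested members were 2.05, 1.41 and 1.11 for WT+MI 1 to 3, and 0.12, 0.80 and -0.66 for TG+MI 1 to 3. The WT arrays lay at -0.66, -0.94 and -0.88, so TG+MI 3 sat among hearts without infarction on this average. WT+MI 1 was the highest of its group for 36 of the 41 members and WT+MI 3 the lowest for 32. TG+MI 2 was the highest of its group for 34 members and TG+MI 3 the lowest for 28. Atrial markers differed between the same arrays. The mean deviation of the 4 tested was 3.89, -3.51 and -3.34 on WT+MI 1 to 3. On TG+MI 1 to 3 it was -0.70, 2.31 and -3.66. Their summed levels were 676.5, 306.7 and 234.9 on WT+MI 1 to 3 and 175, 322.4 and 75.02 on TG+MI 1 to 3. These sums rest largely on Nppa, which was itself called higher in WT+MI than in WT, by 2.51. The part of the atrial markers in the members' values was not tested. Relative to the 6 hearts without infarction, 35, 36 and 30 members lay above all 6 in WT+MI 1 to 3. The same held for 25, 30 and 17 members in TG+MI 1 to 3, and in TG+MI 3 another 12 lay below all 6.

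**Figure D1:**
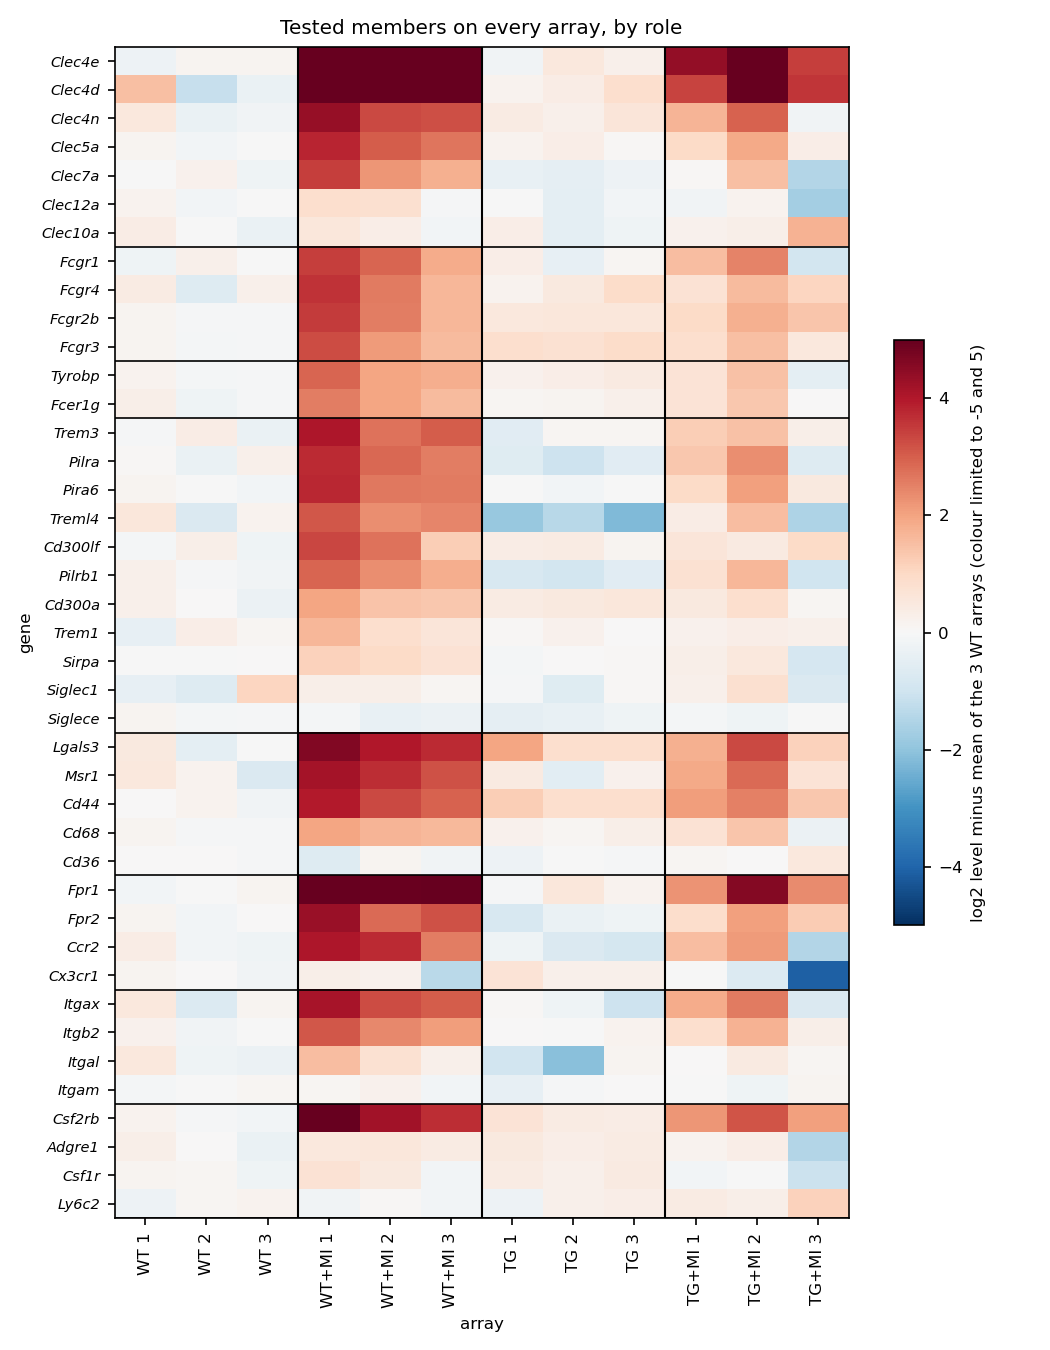
Rows are the 41 tested members grouped by role, columns are the 12 arrays, and colour is the log2 level minus the mean of the 3 WT arrays, limited to -5 and 5. The 3 WT+MI columns are red for most rows, the TG columns are pale for most, and TG+MI 3 holds 12 members below every heart without infarction.

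In wild-type hearts, 30 of the 41 tested members rose after infarction and 0 fell at an adjusted p under 0.05 (limma, Benjamini-Hochberg over all 19761 genes tested). The background is 18.6% of all genes tested called higher. The median difference of the 41 members was 2.48 on the log2 scale (2.43 with the 3 members not measured in WT at their bound), beside -0.14 over all genes tested. For 31 members all 3 WT+MI arrays lay above all 3 WT arrays, which was so for 25.0% of all genes tested. Since these are bulk samples, fewer cells of a type and less RNA per cell cannot be told apart here or below. Markers of leukocytes moved with the members. The summed linear level of the 5 leukocyte markers (Ptprc, Cd52, Laptm5, Coro1a and Cd53) was 8.93 to 11.6 times the array's 75th percentile in WT and 30.8 to 66.4 in WT+MI, and 4 of the 5 rose. Each of the 5 was measured well above background in every sample, and their part in the result was not tested.

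C-type lectins held the members with the largest differences. Of 7 tested, 5 rose in WT+MI, and Clec10a and Clec12a were not called. Clec4e, or Mincle, binds glycolipids of mycobacteria and the nuclear protein Sap130 released by dying cells, and pairs with FcRγ. Its level was -6.35, -5.97 and -5.97 on WT 1 to 3 and 1.75, 0.81 and 1.94 on WT+MI 1 to 3. No WT array was well above background, so the difference is a bound: WT+MI was at least 39.3-fold higher than the dimmest signal that could be measured on the WT arrays (fitted difference 7.60 ± 0.57 SE, limma adjusted p = 3.258e-05). Clec4d, its partner lectin encoded beside it on chromosome 6, read -1.75, -4.40 and -3.58 in WT and 4.07, 2.52 and 2.99 in WT+MI. The groups were far apart, by 6.44 ± 0.66 (SE; limma adjusted p = 0.0001182), although only 1 of 3 WT arrays was well above background. Clec4n, the fungal mannan receptor Dectin-2, read -0.26, -1.13 and -0.97 in WT and 3.58, 2.53 and 2.46 in WT+MI. That is a rise of 3.64 ± 0.63 (SE; limma adjusted p = 0.001309) with no overlap of the groups. Clec5a, which signals through DAP12, and Clec7a, the β-glucan receptor Dectin-1, rose by 3.18 and 2.48.

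Probes for Clec4n, Clec4d and Clec4e lie next to each other on the mm9 build used by the files, at chr6:123196969-123197028, chr6:123224788-123224847 and chr6:123232878-123232937. Whether each probe falls in an exon or a UTR was not determined, since an annotation of that build was not used here. Starts of transcription were instead looked at in RefSeq promoter windows of GRCm38.p6, 250 bases before to 50 bases after each start. Of the 44 members, 31 had a window, and Clec4n, Clec10a, Tyrobp, Trem3, Pira6, Siglec1, Sirpa, Msr1, Itgal, Itgb2, Csf1r, Csf2rb and Adgre1 were not matched. The 6-letter core bound by PU.1, the master regulator of myeloid genes, was searched for as GAGGAA on both strands (TTCCTC on the other). It occurred in 21 of the 31 member windows, or 67.7%, and in 28.3% of the 27025 genes with a window of 300 bases. Among members called higher in WT+MI, 15 of 22 with a window held it. The next lines show 5 windows, 5′ to 3′ along the gene, from RefSeq on GRCm38.p6, with the PU.1 core in capitals: the lectins with the largest differences, a lectin and an Fc receptor with different responses in the 2 genotypes, and Fcer1g as an adaptor whose window has no match.
Clec4e, chr6:123289822-123290121, strand -: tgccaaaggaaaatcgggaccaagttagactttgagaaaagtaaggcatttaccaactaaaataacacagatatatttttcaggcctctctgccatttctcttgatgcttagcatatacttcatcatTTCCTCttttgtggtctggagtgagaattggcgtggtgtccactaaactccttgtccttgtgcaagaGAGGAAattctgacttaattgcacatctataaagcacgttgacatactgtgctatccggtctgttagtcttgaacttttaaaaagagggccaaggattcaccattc
Clec4d, chr6:123261857-123262156, strand +: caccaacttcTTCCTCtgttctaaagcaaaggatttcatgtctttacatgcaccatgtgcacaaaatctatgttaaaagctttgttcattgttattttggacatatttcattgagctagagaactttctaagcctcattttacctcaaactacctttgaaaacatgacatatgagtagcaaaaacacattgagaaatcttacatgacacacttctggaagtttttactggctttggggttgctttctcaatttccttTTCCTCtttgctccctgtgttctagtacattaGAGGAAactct
Clec5a, chr6:40585756-40586055, strand -: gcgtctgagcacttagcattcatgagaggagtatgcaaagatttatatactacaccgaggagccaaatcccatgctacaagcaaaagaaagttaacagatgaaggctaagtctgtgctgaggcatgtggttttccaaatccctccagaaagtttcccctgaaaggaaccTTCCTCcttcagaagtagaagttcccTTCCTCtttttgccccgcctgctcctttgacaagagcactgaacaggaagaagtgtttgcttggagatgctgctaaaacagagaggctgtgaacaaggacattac
Fcgr3, chr1:171059354-171059653, strand -: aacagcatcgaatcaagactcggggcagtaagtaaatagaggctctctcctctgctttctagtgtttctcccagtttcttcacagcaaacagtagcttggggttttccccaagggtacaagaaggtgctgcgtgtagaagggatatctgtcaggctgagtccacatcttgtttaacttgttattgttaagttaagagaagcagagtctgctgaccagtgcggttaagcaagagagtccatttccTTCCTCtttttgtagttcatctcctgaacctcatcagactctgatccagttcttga
Fcer1g, chr1:171234300-171234599, strand -: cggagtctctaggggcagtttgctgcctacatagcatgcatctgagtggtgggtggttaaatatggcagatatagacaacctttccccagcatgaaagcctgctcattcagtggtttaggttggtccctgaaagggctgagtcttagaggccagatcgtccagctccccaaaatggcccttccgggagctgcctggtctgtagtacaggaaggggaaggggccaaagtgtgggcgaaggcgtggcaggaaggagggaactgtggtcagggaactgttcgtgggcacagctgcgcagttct
In the Clec4e window the matches began 123 and 56 bases before the start, and in the Clec5a window 81 and 55 bases before it. Fcgr3 had a match 6 bases before its start. Clec4d had 3 matches, of which 1 began 240 bases before the start and the others 7 and 39 bases after it. A match is a run of letters and shows no binding.

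Fc receptors carry the antibody arm of the same machinery, and all 4 rose in wild-type hearts, by 2.32 to 2.75. Fcgr1 is the high-affinity IgG receptor, Fcgr3 and Fcgr4 are activating, and Fcgr2b is inhibitory. Fcgr3 read 0.85, 0.62 and 0.63 in WT and 3.95, 2.84 and 2.27 in WT+MI, a rise of 2.32 ± 0.36 (SE; limma adjusted p = 0.0007952). Its 2 probes gave 2.32 and 2.08. The inhibitory Fcgr2b rose by 2.57 ± 0.37 (SE; limma adjusted p = 0.0005338).

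Both adaptors rose. Fcer1g read 2.26, 1.75 and 1.89 in WT and 4.53, 3.94 and 3.55 in WT+MI. That is 4.10-fold, or 2.04 ± 0.32 (SE; limma adjusted p = 0.0008286), with every WT+MI array above every WT array. Tyrobp read 1.88, 1.59 and 1.63 in WT and 4.60, 3.69 and 3.50 in WT+MI. It rose 4.69-fold, or by 2.23 ± 0.42 (SE; limma adjusted p = 0.001969), again without overlap.

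Of 11 TREM, CD300, paired Ig-like and Siglec receptors, 9 rose and Siglece and Siglec1 were not called. Trem3, which pairs with DAP12, read -5.62, -5.20 and -5.91 in WT, where no array was well above background, and -1.52, -2.87 and -2.54 in WT+MI. WT+MI was at least 2.81-fold higher (fitted difference 3.27 ± 0.39 SE, limma adjusted p = 0.0002502). Activating and inhibitory partners rose side by side: the inhibitory Pilra by 3.06 and the activating Pilrb1 by 2.34. Sirpa, the receptor for the phagocytosis brake Cd47, rose by 0.94 ± 0.28 (SE; limma adjusted p = 0.01978), the smallest difference among the 30 called members. Siglece, an inhibitory sialic acid receptor, differed by -0.25 ± 0.11 (SE; limma adjusted p = 0.08235).

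Scavenger and matrix molecules rose in 4 of 5 tested cases, with Cd36 as the exception. Lgals3, a secreted galectin made by activated macrophages, read 1.52, 0.56 and 1.03 in WT and 5.65, 5.04 and 4.78 in WT+MI, 17.4-fold or 4.12 ± 0.52 (SE; limma adjusted p = 0.0003129). Msr1, the class A scavenger receptor for modified lipoproteins, read -2.91, -3.26 and -4.17 in WT, with 2 of 3 arrays well above background, and 0.71, 0.26 and -0.27 in WT+MI. It rose by 3.68 ± 0.51 (SE; limma adjusted p = 0.0004849), and neither gene's groups overlapped. Cd44, a receptor for hyaluronan, rose by 3.40 and the lysosomal Cd68 by 1.77. Cd36, a fatty acid transporter that heart muscle and endothelium also express, read 5.61, 5.62 and 5.51 in WT and 4.95, 5.71 and 5.40 in WT+MI. Its groups overlapped (difference -0.23 ± 0.19 SE, limma adjusted p = 0.344).

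Chemotactic receptors divided by gene. Fpr1, a receptor for formyl peptides from bacteria and mitochondria, read -5.99, -5.84 and -5.69 in WT and 0.90, -0.88 and 0.59 in WT+MI. No WT array was well above background, and WT+MI was at least 16.0-fold higher (fitted difference 6.04 ± 0.59 SE, limma adjusted p = 0.000104). Fpr2, its paralogue and a receptor for Anxa1 and serum amyloid A, read -0.98, -1.28 and -1.13 in WT and 3.19, 1.72 and 2.05 in WT+MI. It rose by 3.45 ± 0.37 (SE; limma adjusted p = 0.0001643), all WT+MI arrays lying above the WT arrays. Ccr2, which brings inflammatory monocytes towards Ccl2, read -1.58, -2.11 and -2.18 in WT and 2.09, 1.76 and 0.60 in WT+MI. It rose 10.9-fold, or by 3.44 ± 0.76 (SE; limma adjusted p = 0.004405). Cx3cr1, the fractalkine receptor of patrolling monocytes and some resident macrophages, read 0.58, 0.44 and 0.28 in WT and 0.71, 0.65 and -0.92 in WT+MI. The WT+MI values lay on both sides of WT, and the difference was -0.29 ± 0.85 (SE; limma adjusted p = 0.8004).

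Among the integrins, Itgb2 and Itgax rose and Itgal and Itgam were not called. Itgb2, the shared β2 chain, read -1.10, -1.48 and -1.31 in WT and 1.81, 1.12 and 0.77 in WT+MI, a rise of 2.53 ± 0.34 (SE; limma adjusted p = 0.000409). Itgax, the α chain CD11c, read -2.41, -3.63 and -2.79 in WT and 1.16, 0.31 and 0.08 in WT+MI, a rise of 3.46 ± 0.72 (SE; limma adjusted p = 0.003378). Neither overlapped. Itgam, the α chain CD11b that pairs with Itgb2 on neutrophils and monocytes, lay between 4.70 and 5.33 on all 12 arrays, with a difference of 0.05 ± 0.15 (SE; limma adjusted p = 0.804). The Itgam probe holds a simple repeat of 20 bases (units of up to 3 bases were searched), the Trem1 probe used one of 39 and the Cd300lf probe one of 18. Repeats of at least 15 bases were found in 0.396% of the 56605 probes. What else these 3 probes may bind was not tested, and a second, dimmer Cd300lf probe without such a repeat gave 3.28 in WT+MI against WT, beside 2.43.

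Growth factor receptors and surface markers showed a single call. Csf2rb, the signalling chain shared by the receptors for GM-CSF, IL-3 and IL-5, read -1.21, -1.43 and -1.51 in WT and 3.94, 2.83 and 2.29 in WT+MI. It rose 21.2-fold, or by 4.41 ± 0.38 (SE; limma adjusted p = 6.123e-05). Other, dimmer Csf2rb probes gave 5.34 and 0.94, so its probes differed widely in the size of the rise. Csf1r, the receptor on which macrophages depend for survival, read 4.26, 4.24 and 3.92 in WT and 4.85, 4.62 and 3.99 in WT+MI. These groups overlapped, with a difference of 0.35 ± 0.28 (SE; limma adjusted p = 0.3335). Adgre1, a pan-macrophage surface marker of the mouse, and Ly6c2, a marker of inflammatory monocytes, differed by 0.51 and -0.09 and were not called. Ly6c2, Pilrb1, Pira6, Fcgr2b and Fcgr3 have closely related copies in the genome, so their signal may include those copies. Among the 7 resident macrophage markers (Lyve1, Timd4, Folr2, Cbr2, F13a1, Mrc1 and Cd163) 2 rose and 1 fell, with a median difference of -0.05. F13a1 rose by 1.28 and Lyve1 by 0.76, while Folr2 fell by 0.83. Their summed level was 21.7 to 29.8 in WT and 31.7 to 41.8 in WT+MI, a rise that rests largely on F13a1. All but Timd4 were measured well above background in every sample.

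**Figure D2:**
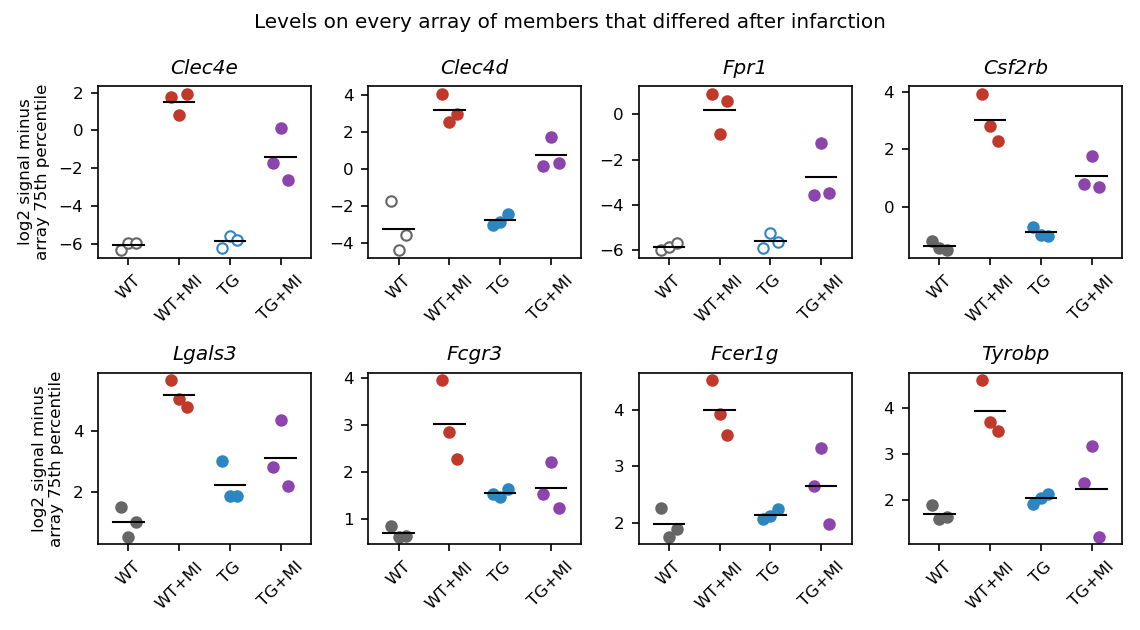
Each panel plots 1 gene, with log2 level on the vertical axis, 1 point per array and a line at the mean of 3; open points mark groups in which at least 1 array was not well above background. All WT+MI points lie above all WT points in the 8 panels, and TG+MI lies between TG and WT+MI on average.

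Clec4a2, Marco and Ccr1 were not tested. Clec4a2, an inhibitory lectin, and Ccr1, a chemokine receptor, were well above background on 0 of 12 arrays. Marco, a scavenger receptor of selected macrophages, was well above background on 1 WT+MI and 2 TG+MI arrays.

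Genes that act downstream and upstream of the receptors moved with them. Of 23 tested signalling genes, 20 rose in WT+MI against WT and 0 fell, with a median of 1.77; Card9, which relays Syk signals from lectins, was well above background on 0 arrays. Fgr, a Src-family kinase with 1 of 3 WT arrays well above background, rose by 4.74, and the exchange factor Vav1 by 3.05. Pik3r5, a lipid kinase subunit, was well above background on 0 WT arrays and was at least 5.87-fold higher in WT+MI. Syk read 1.20, 0.96 and 1.24 in WT and 3.25, 2.73 and 2.79 in WT+MI, a rise of 1.79 ± 0.20 (SE; limma adjusted p = 0.0001883). The phosphatase Ptpn6 rose by 2.40 ± 0.35 (SE; limma adjusted p = 0.0005489). Of 20 ligands, 15 rose and Icam2, an endothelial ligand of the β2 integrins, fell by 0.34. Spp1, an integrin and Cd44 ligand, rose by 9.61 and the serum amyloid Saa3 by 8.12, each with 1 of 3 WT arrays well above background, and Thbs1, a Cd36 ligand, rose by 4.84. The hyaluronan synthase Has1 was well above background on 0 WT arrays and was at least 13.3-fold higher in WT+MI. Ccl2, the ligand of Ccr2, rose by 4.83 ± 0.39 (SE; limma adjusted p = 4.336e-05), and Csf1, a ligand of Csf1r, by 0.93 ± 0.16 (SE; limma adjusted p = 0.001269).

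Markers of the cell types that enter the infarct also moved. The 5 monocyte markers (among them Plac8, Chil3, F10 and Vcan) summed to 1.81 to 2.44 in WT and 21.5 to 88.3 in WT+MI, with 4 higher and 1 lower. Of the 11 tested neutrophil markers 6 were higher and 2 lower, and their sums were 142 to 159 in WT and 384 to 563 in WT+MI. F10 and the neutrophil marker Cxcr2 were well above background on 0 WT arrays and on all 3 WT+MI arrays. The 4 tested lymphocyte markers summed to 1.76 to 2.54 in WT and 1.62 to 1.74 in WT+MI, with 0 calls. Ncr1, a marker of natural killer cells, was well above background on 0 of 12 arrays. The part of these cell types in the members' levels was not tested.

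**Figure D3:**
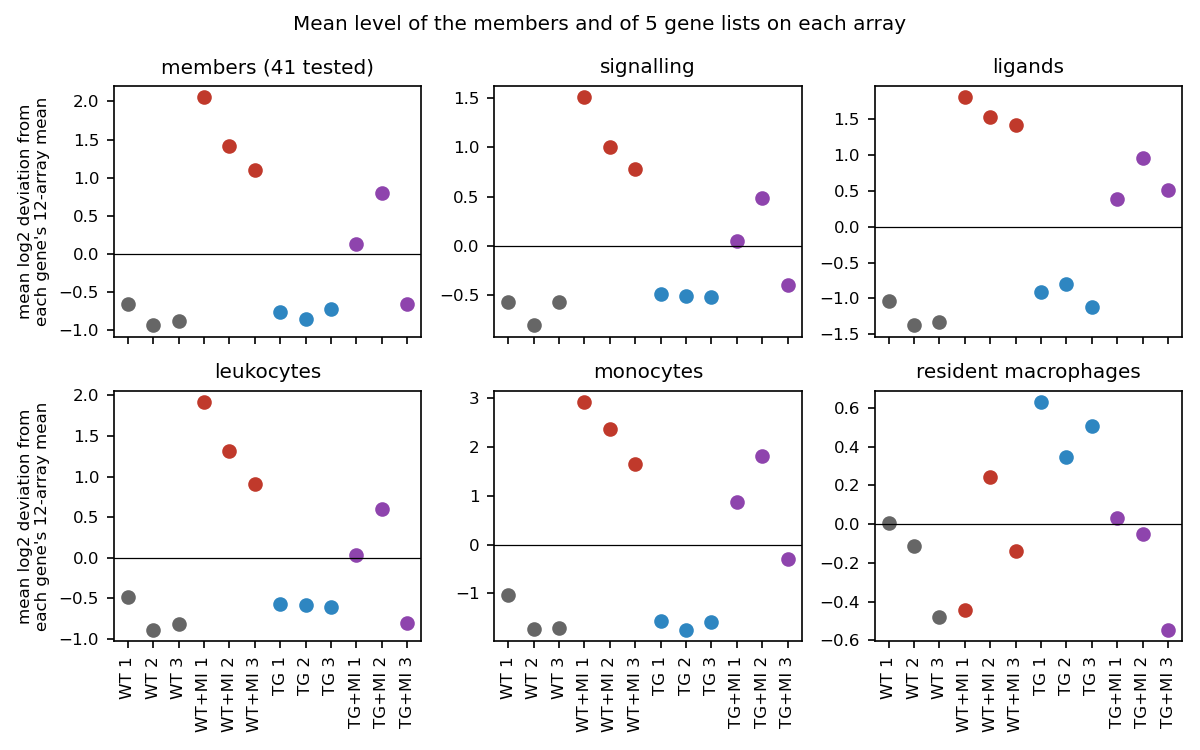
Each panel shows, for each of the 12 arrays, the mean log2 deviation from each gene's 12-array mean over the 41 tested members or over a gene list. WT+MI 1 to 3 are at 2.05, 1.41 and 1.11 for the members, TG+MI 3 is at -0.66, and the resident macrophage panel shows no such step between WT and WT+MI.

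Without infarction, 0 of the 41 members differed between TG and WT at an adjusted p under 0.05 (limma), and 5 did at an unadjusted p under 0.05. Over all 19761 genes tested, 2.62% were called in either direction and 3543 had an unadjusted p under 0.05. All 3 TG arrays lay above all 3 WT arrays for 10 members and below them for 7. Among all genes tested this was so for 2502 and 4122. Differences ran from -1.82 to 1.22 with a median of 0.09. The lowest p belonged to Cd44, which read -0.68, -0.53 and -0.85 in WT and 0.53, 0.15 and 0.16 in TG. Every TG array was above every WT array, but the difference of 0.97 ± 0.31 (SE) had a limma adjusted p of 0.1346. Siglece read 0.90, 0.67 and 0.71 in WT and 0.33, 0.40 and 0.54 in TG, a difference of -0.34 ± 0.11 (SE; limma adjusted p = 0.1492) without overlap. Treml4, a TREM-like receptor of myeloid cells, read -2.77, -4.05 and -3.17 in WT and -5.21, -4.71 and -5.53 in TG. It was well above background on 2 WT arrays and 0 TG arrays, and WT was at least 1.18-fold higher (fitted difference -1.82 ± 0.65 SE, limma adjusted p = 0.178). Without TG+MI 3, which enters only through the shared spread, Treml4 was the single member called, at an adjusted p of 0.03886. Fcgr3 and Lgals3 lay 0.85 and 1.22 higher in TG, with adjusted p of 0.2561 and 0.2523. None of the 23 signalling genes was called, and 1 of 20 ligands was: Anxa1, which dampens neutrophil entry through Fpr2, was 0.77 ± 0.16 (SE) higher in TG (limma adjusted p = 0.03692). TG also stood apart in tissue markers. The summed level of 4 tested atrial markers was 477 to 1495 in TG against 54.5 to 55.9 in WT, and that of 3 adipocyte markers 5.84 to 97.7 against 0.554 to 2.99; their part in these values was not tested.

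In transgenic hearts, 5 members rose after infarction, 0 fell and 36 were not called, and 19 had an unadjusted p under 0.05. Of all 19761 genes tested, 5.21% were called higher and 5080 had an unadjusted p under 0.05. The median difference was 0.88 (0.61 with the 4 members not measured in TG at their bound), beside 0.04 over all genes tested, and for 15 members all TG+MI arrays lay above all TG arrays, as for 17.2% of all genes tested. The 5 were Clec4e, Clec4d, Fpr1, Fpr2 and Csf2rb. Clec4e read -6.25, -5.58 and -5.83 in TG, with no array well above background, and -1.71, 0.13 and -2.64 in TG+MI. TG+MI was at least 4.45-fold higher (fitted difference 4.48 ± 0.57 SE, limma adjusted p = 0.001947). Clec4d read -3.07, -2.87 and -2.42 in TG and 0.14, 1.75 and 0.33 in TG+MI, a rise of 3.52 ± 0.66 (SE; limma adjusted p = 0.01085). For both lectins the lowest TG+MI array was above the highest TG array. Fpr1 read -5.91, -5.26 and -5.65 in TG, with no array well above background, and -3.58, -1.26 and -3.46 in TG+MI, at least 1.74-fold higher (fitted difference 2.84 ± 0.59 SE, limma adjusted p = 0.01757). Fpr2 read -1.93, -1.48 and -1.33 in TG and -0.24, 0.91 and 0.14 in TG+MI, a rise of 1.85 ± 0.37 (SE; limma adjusted p = 0.01557). Csf2rb read -0.69, -0.97 and -1.02 in TG and 0.81, 1.77 and 0.68 in TG+MI, a rise of 1.98 ± 0.38 (SE; limma adjusted p = 0.01305). None of these 3 receptors overlapped between the groups. Other, dimmer Csf2rb probes rose by 2.58 and 0.42. The adaptors Fcer1g and Tyrobp differed by 0.51 ± 0.32 and 0.21 ± 0.42 (SE), with limma adjusted p of 0.3546 and 0.7897.

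The count changed with single arrays. Without TG+MI 3 the count was 19 and without TG 1 it was 3. With slide as a block, or on slide 2 alone, where TG 3 is the only TG array, 0 members were called, with a median difference of 0.78. Both of these estimates rest on that lone TG array, which is taken to vary like the other groups. In the signalling list 3 genes rose (Fgr, Malt1 and Skap2), and 7 ligands did, with Ccl2 higher by 4.17 ± 0.39 (SE; limma adjusted p = 0.0003588). The leukocyte markers summed to 10.5 to 11.2 in TG and 9.84 to 24.9 in TG+MI, and the monocyte markers to 2.02 to 2.99 and 3.38 to 24.8. Of the 11 tested neutrophil markers 5 rose and 0 fell, with sums of 117.5 to 128.4 in TG and 194.6 to 217.3 in TG+MI. The atrial sums were 477 to 1495 in TG and 75.02 to 322.4 in TG+MI, with 0 of the 4 called. The part of these markers in the members' levels was not tested.

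Of the 30 members that rose in wild-type hearts, 26 can be followed in both genotypes, since Clec4e, Fpr1, Trem3 and Treml4 were not measured above background in WT, TG or both. All 26 had a smaller difference in transgenic hearts, where their median was 0.89, beside 2.69 in wild-type hearts. In log2 terms the transgenic difference was a median of 29.6% of the wild-type one, from -1.64% for Sirpa to 56.5% for Pilra. These genes were picked by their wild-type difference, so the count is a description. Of the 3674 genes of the whole array called higher in WT+MI against WT, 93.5% also had a smaller fitted difference in transgenic hearts, with a median of 44.7%, genes near background included.

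**Figure D4:**
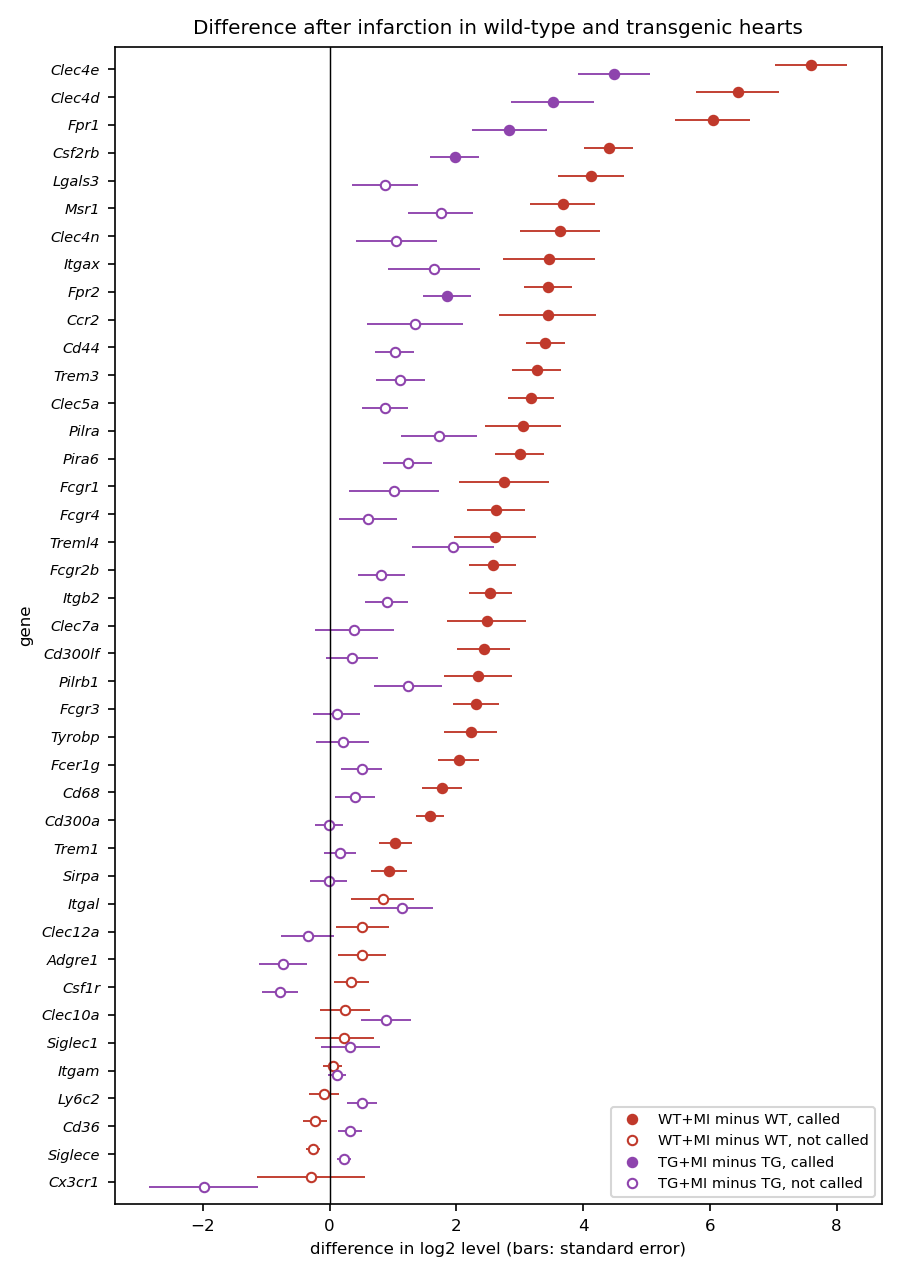
For each of the 41 tested members, ordered by the wild-type difference, points show the log2 difference after infarction in wild-type (red) and transgenic (purple) hearts, with standard errors as bars and filled points for called members. Clec4d lies at 6.44 and 3.52, and 5 purple points are filled against 30 red ones; the fitted points of Clec4e, Fpr1, Trem3 and, in transgenic hearts, Treml4 rest on signals near background.

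Comparing the infarcted hearts directly, 24 of 41 members were lower in TG+MI than in WT+MI and 0 were higher, while 34 had an unadjusted p under 0.05. Of all 19761 genes tested, 4.38% were called lower and 6617 had an unadjusted p under 0.05. The median difference was -1.57, beside 0.09 over all genes, and all TG+MI arrays lay below all WT+MI arrays for 29 members, as for 11.2% of all genes. Fpr1 differed most, by -2.97 ± 0.59 (SE; limma adjusted p = 0.02842), followed by Clec4e at -2.91 ± 0.57 (SE; limma adjusted p = 0.02749), and the arrays of neither gene overlapped. Ccr2 read -0.41, 0.16 and -3.41 in TG+MI, a difference of -2.70 ± 0.76 (SE; limma adjusted p = 0.04584). The TG+MI values of Ccr2 spread more widely than the difference itself, with TG+MI 3 far below the other two. Treml4 read -0.23, -1.01 and -0.90 in WT+MI and -2.96, -1.77 and -4.89 in TG+MI, with 1 of the TG+MI arrays not well above background, and differed by -2.49 ± 0.65 (SE; limma adjusted p = 0.03848). Clec4d differed by -2.46 ± 0.66 (SE; limma adjusted p = 0.04066). Clec7a read 3.66, 2.43 and 1.99 in WT+MI and 0.28, 1.72 and -1.26 in TG+MI, a difference of -2.44 ± 0.62 (SE; limma adjusted p = 0.03726). These groups did not overlap, but TG+MI 2, at 1.72, came close to WT+MI 3, at 1.99.

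Trem3 read -4.35, -4.10 and -5.28 in TG+MI, where 1 array was well above background, and differed by -2.27 ± 0.39 (SE; limma adjusted p = 0.02392). Clec4n read 0.91, 2.15 and -0.98 in TG+MI and differed by -2.16 ± 0.63 (SE; limma adjusted p = 0.04987). Clec5a read 2.29, 1.497 and 1.16 in WT+MI and -0.59, 0.35 and -1.19 in TG+MI, a difference of -2.13 ± 0.36 (SE; limma adjusted p = 0.02392). These 3 receptors were thus lower on every TG+MI array than on any WT+MI array. Pilra read 2.41, 1.55 and 1.25 in WT+MI and 0.02, 0.99 and -1.98 in TG+MI, and differed by -2.06 ± 0.60 (SE; limma adjusted p = 0.04983). Both adaptors were among the 24. Fcer1g read 2.64, 3.33 and 1.97 in TG+MI and differed by -1.36 ± 0.32 (SE; limma adjusted p = 0.03304). Tyrobp read 2.37, 3.16 and 1.21 and differed by -1.68 ± 0.42 (SE; limma adjusted p = 0.03538). Itgb2 read -0.47, 0.46 and -0.99 in TG+MI and differed by -1.57 ± 0.34 (SE; limma adjusted p = 0.02866). By role, 5 of 7 lectins, 1 of 4 Fc receptors (Fcgr3), both adaptors, 7 of 11 TREM to Siglec receptors, 4 of 5 scavenger and matrix molecules, 3 of 4 chemotactic receptors, 1 of 4 integrins and 1 of 4 growth factor receptors and markers were called lower.

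All 24 adjusted p-values lay near the threshold, and the count moved with single arrays. It was 0 without WT+MI 1, without TG+MI 1 or without TG+MI 3, and 10 without WT+MI 2. It was 24 without WT+MI 3 and 31, of which 30 lower, without TG+MI 2. Leaving out an array of a group outside the comparison, which changes only the shared spread, gave 13, 12 and 11 without WT 1, 2 and 3, and 17, 12 and 14 without TG 1, 2 and 3. It was also 0 with slide as a block and 0 with no filter on dim probes. Over the arrays left out in turn the median difference of the members stayed between -1.90 and -1.16. Leukocyte markers moved in the same direction, with 4 of 5 called lower and sums of 30.8 to 66.4 in WT+MI against 9.84 to 24.9 in TG+MI. Monocyte markers summed to 21.5 to 88.3 against 3.38 to 24.8, and neutrophil markers to 384 to 563 against 195 to 217. Of the 23 signalling genes 15 were lower, Syk by 0.82 ± 0.20 (SE; limma adjusted p = 0.0345) and Ptpn6 by 1.70 ± 0.35 (SE; limma adjusted p = 0.02854). The others included Btk, Dok1, Dok3, Fermt3, Fgr, Inpp5d, Lat2, Lcp2, Pik3cg, Prkcd, Skap2 and Vav1, with differences from -2.35 (Fgr) to -0.77 (Prkcd). Of the 20 ligands 4 were lower: Pglyrp1, a ligand of Trem1, by 1.65, Ccl2 by 1.46, Has2 by 1.15 and Csf1 by 0.58.

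The interaction asks whether the response to infarction differed between genotypes, as the transgenic difference minus the wild-type one. It was called for 9 of 41 members, all negative, beside 3.05% of all genes tested called negative. An unadjusted p under 0.05 was found for 27 members, beside 6367 of the 19761 genes tested. The median was -1.70, beside 0.14 over all genes. Lgals3 read 3.00, 1.87 and 1.88 in TG and 2.83, 4.36 and 2.20 in TG+MI, so that these groups overlapped, and its interaction was -3.24 ± 0.73 (SE; limma adjusted p = 0.03728). Cd44 read 1.42, 1.84 and 0.66 in TG+MI, above every TG array but below every WT+MI array, with an interaction of -2.37 ± 0.43 (SE; limma adjusted p = 0.02588). Fcgr3 read 1.53, 1.47 and 1.64 in TG and 1.53, 2.21 and 1.24 in TG+MI, a difference of 0.11 ± 0.36 (SE; limma adjusted p = 0.8815), and its interaction was -2.21 ± 0.51 (SE; limma adjusted p = 0.03865). Cd300a, an inhibitory receptor for phospholipids of dying cells, read -0.58, -0.83 and -1.12 in WT, 1.12, 0.60 and 0.49 in WT+MI, -0.44, -0.36 and -0.29 in TG and -0.37, 0.01 and -0.75 in TG+MI. Its difference was 1.58 in wild-type and -0.01 in transgenic hearts, with an interaction of -1.59 ± 0.31 (SE; limma adjusted p = 0.02937). For Lgals3, Fcgr3 and Cd44 part of the interaction came from higher TG levels, by 1.22, 0.85 and 0.97 over WT, none of which was called. Clec4e, Fpr1, Csf2rb, Clec5a and Trem3 were the other called members, at -3.11, -3.20, -2.43, -2.31 and -2.15, of which Clec4e, Fpr1 and Trem3 rest on signals near background in WT and TG. For Csf2rb, other and dimmer probes gave -2.77 and -0.52.

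These calls were also tied to single arrays. The count was 0 without any one of WT 2, WT 3, TG 1, TG 2 or TG+MI 1, and 1 without WT 1. It was 4 without WT+MI 1 or WT+MI 2, 3 without TG+MI 3 and 5 without TG 3. It reached 14 without WT+MI 3 and 20 without TG+MI 2. With slide as a block or with no filter on dim probes it was 0, while the median over the arrays left out in turn stayed between -1.99 and -1.19.

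Some members spread widely among the transgenic infarcted hearts. Cx3cr1 read 1.13, 0.68 and 0.68 in TG and 0.43, -0.25 and -3.65 in TG+MI, a difference of -1.99 ± 0.85 (SE; limma adjusted p = 0.1736). Csf1r read 4.57, 4.41 and 4.58 in TG and 4.00, 4.14 and 3.07 in TG+MI, a difference of -0.78 ± 0.28 (SE; limma adjusted p = 0.1101). In both, every TG+MI array was below every TG array and TG+MI 3 was the lowest of all 12. A second, dimmer Csf1r probe went the other way in TG+MI against TG, by 0.21. Ccr2 read -2.19, -2.69 and -2.82 in TG, so that TG+MI 1 and 2 lay above and TG+MI 3 below them (difference 1.34 ± 0.76 SE, limma adjusted p = 0.2973). The 12 members that TG+MI 3 held lower than any other array were Clec7a, Clec12a, Fcgr1, Tyrobp, Pilrb1, Siglec1, Sirpa, Ccr2, Cx3cr1, Csf1r, Adgre1 and Cd68. Adgre1 read 1.20 and 1.36 on TG+MI 1 and 2 and -0.44 on TG+MI 3.

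Other members were highest on that same array. Clec10a, a galactose-binding lectin of macrophages and dendritic cells, read 0.64 and 0.73 on TG+MI 1 and 2 and 2.17 on TG+MI 3. Ly6c2 read 6.64, 6.53 and 7.39 on TG+MI 1 to 3 against 5.98, 6.48 and 6.55 in TG, and Cd36 read 5.68, 5.60 and 6.10 against 5.33, 5.58 and 5.51. None of these 3 was called in any comparison of the 4 groups. Under quantile normalization and in the authors' value table Ly6c2 was called higher in TG+MI than in WT+MI. The induced receptors Fpr1, Fpr2 and Csf2rb were not lowest of all there, and on TG+MI 3 they stood nearer to TG+MI 1 than to TG+MI 2. On TG+MI 3 the leukocyte markers summed to 9.84, below the 10.5 to 11.2 of TG. The resident macrophage markers summed to 23.0 against 37.1 to 45.4 in TG. Neutrophil markers had a mean deviation of 0.71 there, beside 0.32 and 0.76 on TG+MI 1 and 2 and -1.92 to -1.41 in TG. For the ligands these values were 0.51, 0.39 and 0.96, and -1.12 to -0.80. The endothelial markers summed to 263 against 167 to 232 on the other 11 arrays, but this sum rests largely on Fabp4. Fabp4 (7.83) and Pecam1 (0.56) were highest on TG+MI 3, while Kdr (4.43) and Cdh5 (3.55) were within the range of the other arrays. The mean deviation of the endothelial markers was 0.22, beside 0.21 on WT 2. The part of these markers in the members' values was not tested.

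**Figure D5:**
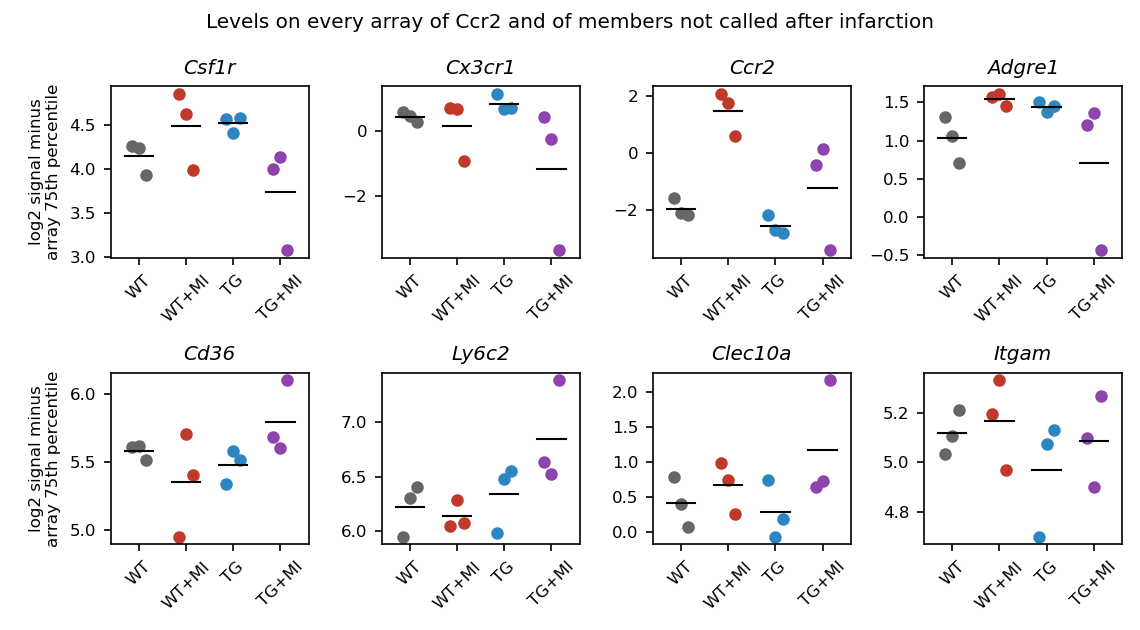
Each panel plots 1 gene, with log2 level on the vertical axis, 1 point per array and a line at the mean of 3. TG+MI 3 is the lowest point for Csf1r, Cx3cr1, Ccr2 and Adgre1 and the highest for Cd36, Ly6c2 and Clec10a, while the Itgam points span 4.70 to 5.33.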

How the data were processed

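Total RNA of 12 mouse heart samples was hybridised to Agilent single-colour arrays, 1 per sample, in 4 groups of 3 taken from the labels. Per the file headers, Agilent Feature Extraction subtracted background, and the authors deposited its processed signal as linear intensity, not normalized between arrays. A value table on a log2 scale was also deposited by the authors. Each column ranked the probes as its own array did, and its column medians were 4.21 to 4.22, as quantile normalization gives, though the sources used here do not state the steps. The submitters' processing notes name limma. Here log2 intensity minus the array's 75th percentile over distinct non-control probes was used, outlier spots were left out (49 probes lost, among them 1 of 80 member probes, for Trem1) and spots of a probe were averaged. Each gene was read from its probe with the highest mean, and 19761 of 36981 genes were tested, those detected above background throughout at least 1 group of 3. The test was limma 3.58.1 in R 4.3.3 (lmFit and eBayes, 12 arrays in a group-means model, Benjamini-Hochberg, threshold 0.05). On simulated data it recovered 68% of genes shifted by 1 and 89% of those shifted by 2 in WT+MI against WT, over 19761 genes. A bound compares the brighter group's mean with the dimmest signal well above background on each array of the other group. The members, roles, lists and markers were chosen with earlier results of these data known. Full values were given for the 8 largest called differences after infarction, for up to 10 called members otherwise, for the 3 lowest p where none was called, for bounds, and for 7 members in any case. From the pathway lists, the 4 largest, those called between genotypes and 5 fixed genes were named, except for items that are not reported here. Alternatives covered normalization, background correction, the filter, probe averaging, slide, a replicate block and each array left out. Figures were drawn with matplotlib 3.10.9.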

Additional observations from a re-analysis of the deposited data

Results flagged for a closer look

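The response to infarction differed between genotypes, by the interaction term of limma, for 9 members, all with a smaller rise in transgenic hearts. The log2 interaction was -3.24 for Lgals3, -3.2 for Fpr1, -3.11 for Clec4e and -2.43 for Csf2rb. It was -2.37 for Cd44, -2.31 for Clec5a, -2.21 for Fcgr3, -2.15 for Trem3 and -1.59 for Cd300a. Limma adjusted p-values ran from 0.02588 for Cd44 to 0.04535 for Fpr1. Clec4e, Fpr1 and Trem3 were not well above background in WT or TG, so their interaction rests on signals near background. Other, dimmer Csf2rb probes gave an interaction of -2.77 and -0.52. Groups of 3 were too small for a search for single outlying arrays.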

How the results depend on the processing

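In WT+MI against WT the count of members called stayed between 23 and 31 under every alternative, and 29 to 31 with each array left out. Leaving out each array in turn gave 0 to 1 in TG against WT, 0 to 31 in TG+MI against WT+MI, 3 to 19 in TG+MI against TG and 0 to 20 for the interaction. With no filter on dim probes the counts were 0 in TG+MI against WT+MI and 0 for the interaction. With slide as a block 0 were called in TG+MI against WT+MI, 0 in TG+MI against TG and 0 for the interaction; on slide 2 alone 0 in TG+MI against TG. Testing only probes well above background on all 12 arrays gave 2 in TG+MI against TG, among 32 members. The cause was not tested, apart from TG 3 being the lone TG array on slide 2. The replicate block gave 30 members in WT+MI against WT and 0 in TG against WT. For TG+MI the replicate block gave 21 against WT+MI, 7 against TG and 6 for the interaction. Correlations of same-numbered arrays ran from -0.26 to 0.12, beside -0.18 to 0.25 for arrays of different numbers and groups. With groups of 3 these values cannot exclude a shared batch or a pairing. Normexp background correction called Ly6c2 and Cd36 higher in TG+MI than in WT+MI. No called member changed direction under any alternative. Signals near background limit Clec4e, Fpr1, Trem3 and Treml4.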
